A study of Bos taurus with 106 samples.

Results

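Vesicle traffic genes of bovine liver were followed through the dry period and early lactation. The members were the array elements whose gene symbol begins with RAB and a digit, SEC and a number, COP and a letter (COPS symbols left out), VPS, ARF and a digit, SNX, TRAPPC, TMED, YIPF or EXOC. This symbol rule found 119 elements of 96 genes among 5598 elements of 4452 genes that carry a single symbol, and 8208 elements were on the array in all. A further element matched with 2 symbols (SEC24B and SEC24A) and was not used. Of the 119 elements, 117 could be tested, and these covered all 96 genes. The 2 untested elements, of RAB8A and RAB10, lacked values in too many cows, and each of these genes had another element that was tested.

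The study compared 2 planes of nutrition before calving in 8 Holstein cows. All cows received a diet of moderate energy density (1.60 Mcal/kg) through a dry period of 65 days. In the restricted group, 4 cows were held to an intake of about 80% of the NRC requirement, and in the ad libitum group 4 cows ate freely, at about 120%. Liver samples came from days -65, -30, -14, 1, 14, 28 and 49 around calving; day -65 had 3 and day 49 had 2 ad libitum cows, and all other groups had 4 cows. The labels name no separate diet for the days after calving and no age. Each of the 53 samples (a cow on a day) was hybridised on 2 arrays, with the dyes swapped, against a reference pooled from tissues other than liver. Every value below is a log2 ratio of liver over that reference, relative to the median of its array. A ratio describes its own element only, and the ratios of different genes do not rank their levels. Hepatocyte markers bore out the tissue: the mean log2 ratio was 6.11 for RBP4, 5.17 for SLC10A1, 4.65 for TF and 1.00 for APOA1.

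Secreted proteins enter the endoplasmic reticulum through the translocon, lose their signal peptide to signal peptidase and leave in vesicles with a COPII coat. COPI vesicles, p24 proteins and Arf GTPases serve the return route and the Golgi, and Rab GTPases together with tethers such as TRAPP and the exocyst give vesicles their direction. VPS proteins and sorting nexins act mostly on endosomes and lysosomes. Hepatocytes use these routes to release plasma proteins and lipoproteins and to take up receptors and their cargo.

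The members comprised 36 elements of 26 RAB genes and 4 of 4 Arf genes. The coats were represented by 7 elements of 6 COPI genes and 8 elements of 6 COPII genes and partners, and entry into the endoplasmic reticulum by 5 elements of 4 translocon and signal peptidase genes. There were 16 elements of 13 VPS genes, 17 of 14 sorting nexins, 8 of 8 TRAPP genes, 7 of 5 p24 genes, 4 of 4 YIPF genes and 4 of 3 exocyst genes. The rule also took in symbols outside the core machinery: the lipid-binding proteins SEC14L1 and SEC14L6, the Rab effector RAB11FIP5, RAB5IF, and COPRS, a partner of a protein methyltransferase that is no coat protein. The plot of counts by comparison and all counts below include them.

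The arrays of days -14, 1 and 14 stood apart from the others. The 2 dye orientations of a sample correlated over elements with a mean r of 0.531 on day -14, 0.444 on day 1 and 0.479 on day 14, against 0.666 to 0.702 on days -65, -30, 28 and 49. Of the 20 samples with r under 0.6, 16 fell on those 3 days. The median SD of the tested member elements between cows was 0.42, 0.34 and 0.42 on days -14, 1 and 14, and 0.14 to 0.24 on the other 4 days. It was 0.36 to 0.42 and 0.16 to 0.26 over all elements tested. Each comparison between those 3 days and the rest therefore also sets arrays of lower agreement against arrays of higher agreement, and the part of this in the results was not tested. Comparisons within each set of days are given beside them.

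Over the 7 days, 46 of the 117 member elements changed (limma F test, adjusted p under 0.05), which is 39.3%, against 43.4% of all 8061 elements tested. The members thus changed no more often than the array as a whole. The 46 elements belonged to 44 genes. Averaged over days -14, 1 and 14, 29 of these elements lay above their average of the remaining 4 days and 17 below it. VPS proteins changed in 9 of 16 elements, COPII genes and partners in 4 of 8, TRAPP in 4 of 8, the exocyst in 2 of 4, Arf GTPases in 3 of 4, p24 proteins in 3 of 7 and translocon and signal peptidase in 2 of 5. RAB elements changed in 10 of 34 tested, sorting nexins in 5 of 17, COPI in 2 of 7 and YIPF in 1 of 4. In this bulk tissue, fewer cells of a type and less RNA per cell cannot be told apart.

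Over days, member elements passed only in tests that compared both sets of days. Within days -65, -30, 28 and 49, no member element passed the F test, and 0.471% of all elements passed. Within days -14, 1 and 14, again none passed, against 0.72% of all elements. These tests hold fewer days, and the split was chosen after the data were seen, so none passing does not show that nothing changed.

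**Figure D1:**
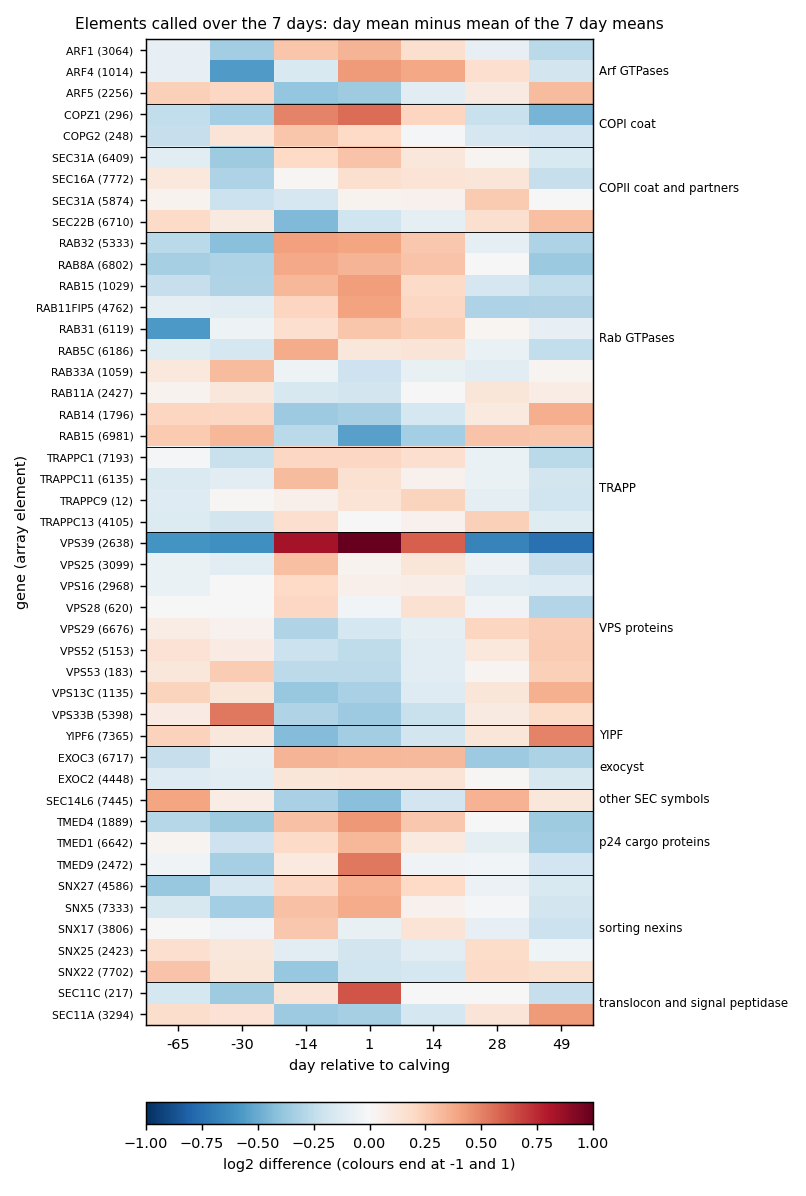
The heat map shows the 46 member elements that changed over the 7 days, one row per element (element number in brackets) grouped by role, and one column per day. Colour gives the mean log2 ratio of the day minus the mean of the 7 day means, red for higher and blue for lower, with colours ending at -1 and 1. Most rows turn colour at day -14 and turn back towards their earlier colour by day 28, in both directions, and VPS39 has the strongest colours.

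VPS39, a subunit of the HOPS tether that fuses endosomes with lysosomes, had the smallest p over days. Its log2 ratio was -0.49, -0.29 and -0.17 (lowest, median and highest of 8 cows) on day -30 and 0.21, 1.22 and 1.64 on day -14. It was 1.14, 1.27 and 2.20 on day 1, then -0.85, 0.89 and 1.91 on day 14 and -0.64, -0.40 and 0.09 on day 28. All 8 cows were higher on day -14 than any cow on day -30, while on day 14 a single restricted cow, 6952, lay below every value of day 28. The rise from day -30 to day -14 was 1.46 ± 0.22 (SE, n = 8 cows), or 2.74-fold, in 8 of 8 cows (limma, adjusted p = 2.76e-06). It was of like size in both diets, 1.48 in ad libitum and 1.43 in restricted cows. Other HOPS genes on the array were VPS16, whose day means were -0.13 and 0.08 and which missed the threshold (adjusted p = 0.0604), and VPS18, whose day means were 0.11 and 0.36.

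The elements whose values over the 53 samples were most like those of VPS39 were EMP1 (Pearson r = 0.924), LAMA5 (0.913), MSL1 (0.902), RBFOX2 (0.88) and H2B (0.88). None of these is a vesicle traffic gene. The points share cows, the reference and the array sets of the days, so the correlations are a description only.

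Between day -30 and day -14, 38 member elements changed, 24 higher and 14 lower. This was 32.5% of the members, against 33.5% of all elements. The share that rose was 20.5%, against 19.5% of all elements, and the share that fell was 12%, against 14%. The median difference was 0.14 in the members and 0.06 over all elements. Each array was centred on its median before this comparison; without centring, the median of all elements moved to 0.48, so directions are relative to the array as a whole. Under that setting 33 of the 38 kept their sign, and RAB22A, RAB33A, RAB11A, VPS29 and SEC14L6, all lower after centring, turned to between 0.02 and 0.15. In each dye orientation taken alone, 13 of the 38 passed with the same sign, 11 higher and 2 lower. Without the samples of r under 0.6, 14 of the 38 still passed.

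Of the 7 COPI elements, 1 passed in this step. COPZ1, the zeta subunit of the COPI coat, had log2 ratios of -0.82, -0.59 and -0.33 (lowest, median and highest) on day -30 and -0.53, 0.26 and 0.82 on day -14. A single ad libitum cow stayed within the day -30 range, and the rise of 0.84 ± 0.12 (SE) was seen in 7 of 8 cows (limma, adjusted p = 9.99e-07). ARF1, the GTPase that recruits the COPI coat to Golgi membranes, went from -0.98, -0.87 and -0.52 to -0.88, -0.21 and 0.44. The groups overlapped, and the rise was 0.63 ± 0.12 (SE) in 7 of 8 cows (adjusted p = 9.16e-05). TMED4, a p24 protein of early secretory vesicles, went from -1.08, -0.76 and -0.46 to -0.69, -0.22 and 0.45, higher by 0.65 ± 0.10 (SE) in 8 of 8 cows (adjusted p = 5.98e-06). TMED1 and TMED9 (element 2472), also p24 proteins, rose by 0.40 ± 0.11 and 0.43 ± 0.17 (SE), with adjusted p of 0.00645 and 0.042. TMED9 element 2472 read 0.13 with liver in Cy3 and 0.72 with liver in Cy5. The second TMED9 element (488) differed by 0.33 and did not pass. A second TMED4 element (1574) differed by 0.05 only.

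RAB genes changed in 11 of 34 elements, 6 higher and 5 lower. RAB32, which serves lysosome-related organelles and mitochondria, had ratios of 0.36, 0.68 and 0.94 on day -30 and 0.60, 1.71 and 1.96 on day -14. The rise was 0.83 ± 0.14 (SE) in 7 of 8 cows (limma, adjusted p = 2.3e-05), by 0.46 in ad libitum and 1.2 in restricted cows. RAB8A (element 6802), a GTPase of traffic to the plasma membrane, rose by 0.69 ± 0.15 (SE, adjusted p = 0.000769), and its second element (1960) differed by -0.01. RAB5C (element 6186), of early endosomes, rose by 0.55 ± 0.14 (SE, adjusted p = 0.00254), and its second element (1948) differed by -0.09. With liver in Cy5 alone, RAB5C element 6186 read 0.21 and did not pass.

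RAB15, a GTPase of recycling endosomes, had 2 elements that moved in opposite directions. Element 1029 went from -1.57, -1.33 and -1.0 on day -30 to -1.40, -0.79 and 0.01 on day -14, and element 6981 from -0.43, -0.32 and -0.10 to -1.35, -0.85 and -0.34. Each moved in its own direction in 8 of 8 cows. The differences were 0.63 ± 0.13 (SE, adjusted p = 0.000339) and -0.60 ± 0.11 (SE, adjusted p = 5.18e-05), and each passed in both dye orientations alone. Over the 53 samples the elements correlated with r of -0.634, and with r of -0.0372 once the mean of each diet and day was removed. No direction can be given for the gene. RAB14, a GTPase between Golgi and endosomes, also had 1 element lower (1796, -0.57 ± 0.21, adjusted p = 0.0291) and 1 higher (1587, 0.60 ± 0.23, SE, adjusted p = 0.0389). Unlike those of RAB15, neither passed in both dye orientations alone. Element 1796 read -1.01 with liver in Cy3 and -0.13 in Cy5, and element 1587 read 0.36 and 0.85.

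**Figure D2:**
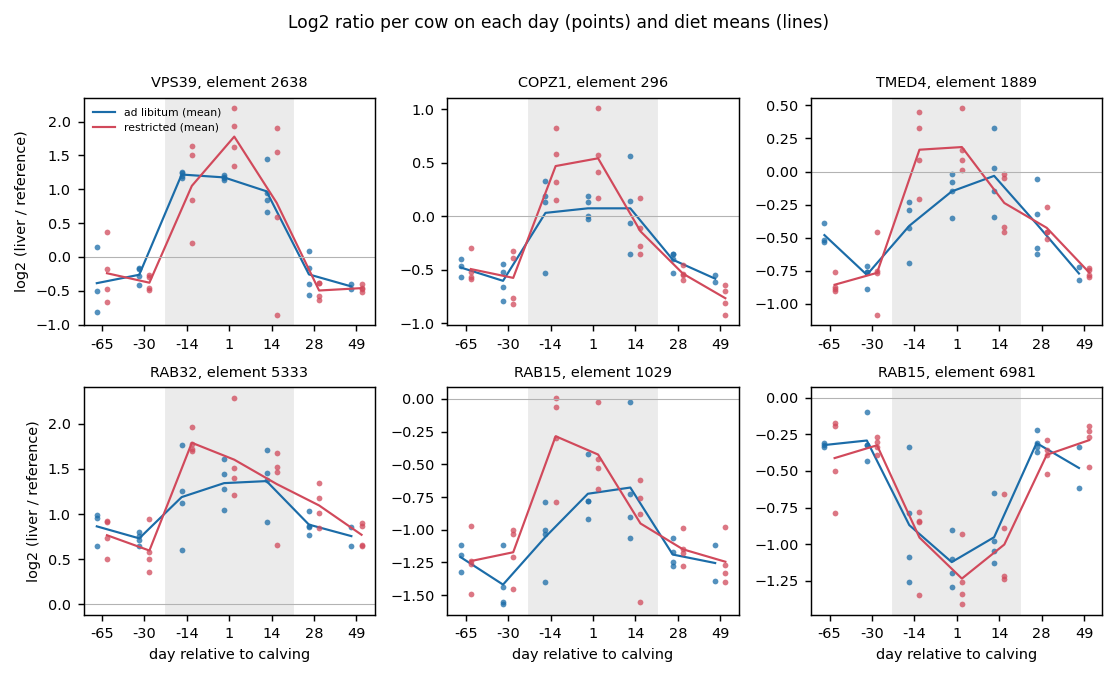
Each panel shows 1 element, with a point per cow and a line through the mean of each diet, as log2 (liver / reference) on the vertical axis against the day relative to calving; grey marks days -14, 1 and 14. VPS39, COPZ1, TMED4 and RAB32 are higher on the grey days, while the elements of RAB15 go up (1029) and down (6981).

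Endosomal genes moved both ways. VPS33B (element 5398), which pairs with VIPAS39 in endosomal sorting, went from 0.49, 1.12 and 1.47 on day -30 to -0.29, 0.14 and 0.67 on day -14, lower in 8 of 8 cows by -0.83 ± 0.16 (SE, limma, adjusted p = 0.000161). Its second element (2011) differed by 0.01. SNX22, a sorting nexin, was lower by -0.50 ± 0.12 (SE, adjusted p = 0.00128), with ratios of -0.13, 0.01 and 0.24 before and -1.17, -0.41 and -0.03 after. SNX5 (element 7333), a partner of retromer in retrieval from endosomes, rose by 0.63 ± 0.18 (SE, adjusted p = 0.00604), and its second element (5856) differed by 0.35. VPS25 of the ESCRT machinery rose by 0.41 ± 0.11 (SE, adjusted p = 0.0054), and VPS53 of the GARP tether was lower by -0.51 ± 0.15 (SE, adjusted p = 0.00954). ARF5, a Golgi GTPase, was lower by -0.58 ± 0.17 (SE, adjusted p = 0.00779), with 1 restricted cow at -1.86 and the highest cow at 0.34. SNX22, VPS53 and ARF5 passed with liver in Cy3 alone but not in Cy5, where they read -0.18, -0.33 and -0.32.

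Of the 8 TRAPP elements, 3 passed in this step, all higher. TRAPPC1, TRAPPC11 and TRAPPC13 rose by 0.43 ± 0.11, 0.42 ± 0.12 and 0.35 ± 0.12 (SE), with adjusted p of 0.00294, 0.00466 and 0.0194 (limma). Only TRAPPC1 passed in each dye orientation alone. TRAPPC11 read 0.75 with liver in Cy3 and 0.09 with liver in Cy5, and TRAPPC13 read 0.03 and 0.67. The other 5 TRAPP elements did not pass and read between -0.14 (TRAPPC5) and 0.37 (TRAPPC8). EXOC2, an exocyst subunit, had a small step of 0.23 ± 0.07 (SE, adjusted p = 0.00932), from -0.53, -0.42 and -0.35 to -0.34, -0.19 and 0.01, and its groups did not overlap. EXOC3 (element 6717) rose by 0.43 ± 0.16 (SE, adjusted p = 0.0329), but this value came from opposite readings of the dyes, 1.25 with liver in Cy3 and -0.39 with liver in Cy5. The second EXOC3 element (4582) differed by -0.06. SEC14L6, a lipid-binding protein, was lower by -0.40 ± 0.14 (SE, adjusted p = 0.0197). EXOC2 passed with liver in Cy3 alone (0.31) but not in Cy5 (0.16), and SEC14L6 in Cy5 (-0.59) but not in Cy3 (-0.22).

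Markers of cell types moved in the same step. Over 4 of 15 hepatocyte markers on the array, the mean log2 ratio per sample lay between 4.32 and 4.72 on day -30 and between 3.53 and 4.00 on day -14, and 3 of the 4 elements fell. Over 7 elements of 5 of 8 stellate cell and fibroblast markers it lay between -2.64 and -2.39 and then between -2.31 and -0.74, with 4 elements higher. Over 7 elements of 5 of 8 endothelial markers it went from between 1.39 and 1.97 to between 0.97 and 1.68, and the single neutrophil element from between 0.59 and 1.21 to between 1.40 and 3.17. Macrophage markers (10 elements of 7 of 9 genes) ranged from 3.0 to 3.75 and then from 2.49 to 3.49, and T and NK cell markers (4 of 8) from 0.59 to 0.92 and then from 0.41 to 1.72. Their part in the members' changes was not tested.

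Other genes of the traffic pathway, 123 elements of 94 genes outside the symbol rule, gave like shares. In the step to day -14, 37 of them changed (30.1%), 28 higher and 9 lower. Among clathrin and its adaptors 11 of 23 elements changed, 8 of them higher, with AP3D1, a subunit of the adaptor AP-3, at 0.75 ± 0.13 (SE, limma, adjusted p = 4.55e-05). Among regulators of Rab and Arf GTPases 8 of 39 changed, 7 of them higher, and TBC1D20, a GTPase activator of the RAB1 group, rose by 0.55 ± 0.08 (SE, adjusted p = 2.01e-06). SNAREs, the proteins that fuse vesicles with their target, changed in 7 of 23 elements, 5 higher and 2 lower.

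**Figure D3:**
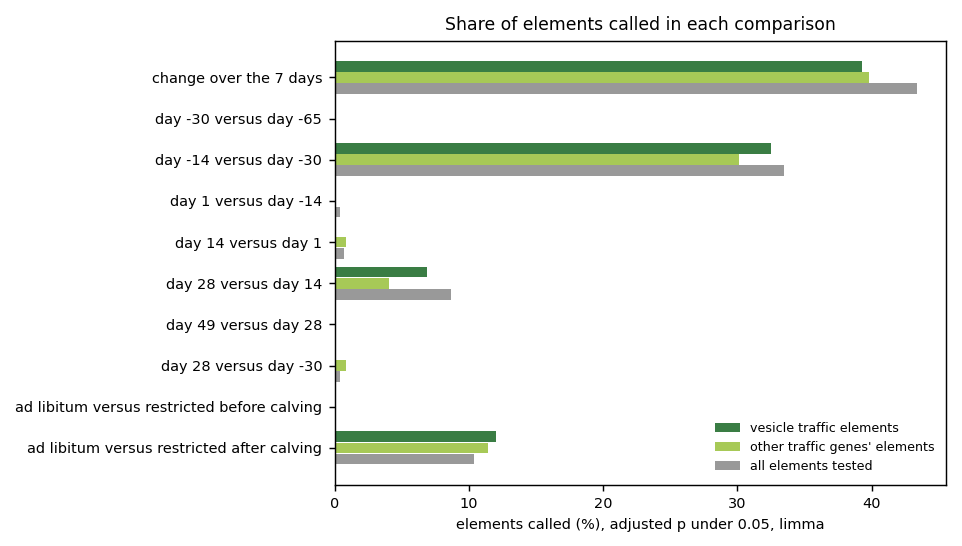
Bars give the percentage of elements that passed at an adjusted p under 0.05 in each comparison, for the 117 vesicle traffic elements, the 123 elements of other traffic genes and all 8061 elements tested. The members follow the array in each comparison, with 39.3% against 43.4% over the 7 days and 12% against 10.4% between diets after calving.

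Before that step, from day -65 to day -30, no member element passed (limma), against 0.112% of all elements. SEC16A, which organises the sites where COPII vesicles form, had ratios of 0.78, 0.87 and 1.27 on day -65 and 0.32, 0.57 and 0.76 on day -30. The groups did not overlap, the difference was -0.42 ± 0.13 (SE), in 7 of 7 cows with both days, and the adjusted p was 0.231. SEC14L6 and RAB5B had differences of -0.33 ± 0.14 and -0.24 ± 0.11 (SE). COPG2 (element 248), RAB31 (element 6119) and VPS33B (element 5398) had differences of 0.38 ± 0.12, 0.52 ± 0.18 and 0.42 ± 0.17 (SE). The second elements of these genes differed by -0.15 (COPG2 element 6145), -0.08 (RAB31 element 5857) and -0.02 (VPS33B element 2011).

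Across calving, from day -14 to day 1, no member element passed either (limma), against 0.397% of all elements. The smallest p was that of SEC11C, followed by SNX17, ARF4 and TMED9. SEC11C, a catalytic subunit of signal peptidase, had ratios of 0.61, 1.34 and 2.80 on day -14 and 1.51, 1.93 and 2.39 on day 1, a difference of 0.51 ± 0.17 (SE), in 6 of 8 cows (adjusted p = 0.226). ARF4, which acts between Golgi and endoplasmic reticulum, differed by 0.58 ± 0.22 (SE) in 8 of 8 cows (adjusted p = 0.305), from -1.41, -0.87 and 0.43 to -0.79, -0.17 and 0.44. Both TMED9 elements were higher on day 1 than on day -14 in 6 of 8 cows, by 0.43 ± 0.17 (element 2472) and 0.30 ± 0.17 (element 488, SE), and RAB1A, the GTPase of traffic from the endoplasmic reticulum to the Golgi, by 0.39 ± 0.17 (SE) in 7 of 8. Among those with negative values, SNX17 differed by -0.33 ± 0.12, VPS25 by -0.27 ± 0.11 and RAB15 (element 6981) by -0.27 ± 0.11 (SE), against 0.09 in RAB15 element 1029.

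From day 1 to day 14 no member element passed (limma), against 0.707% of all elements. SEC11C was lower on day 14 in 8 of 8 cows, at 1.03, 1.27 and 1.68, with a difference of -0.63 ± 0.17 (SE) and an adjusted p of 0.0746. TMED9 (element 2472) differed by -0.55 ± 0.17 (SE) in 7 of 8 cows and COPZ1 by -0.34 ± 0.12 (SE) in 7 of 8. YIPF2, a Golgi membrane protein, differed by 0.77 ± 0.40, RAB15 (element 6981) by 0.20 ± 0.11 and RAB11A (element 2427) by 0.19 ± 0.11 (SE). The second elements differed by -0.24 (RAB15 element 1029), -0.13 (RAB11A element 6854) and -0.38 (TMED9 element 488). Without cow 6877, 2 member elements passed in this step, both lower, and 1 passed, higher, in the step across calving. The shares of all elements in that fit are not given here. Days -14, 1 and 14 all belong to the set of lower agreement, with a mean r of 0.531, 0.444 and 0.479. Single samples of these days still ranged from 0.0332 (day 1) to 0.796 (day 14). The diets also differed in mean r on day 1 (ad libitum 0.336, restricted 0.552). The part of agreement in the course of SEC11C was not tested. On day 1 SEC11C read 1.51 to 1.73 in the 4 ad libitum cows and 2.13 to 2.39 in the 4 restricted cows, with no overlap. That day was not tested by itself.

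**Figure D4:**
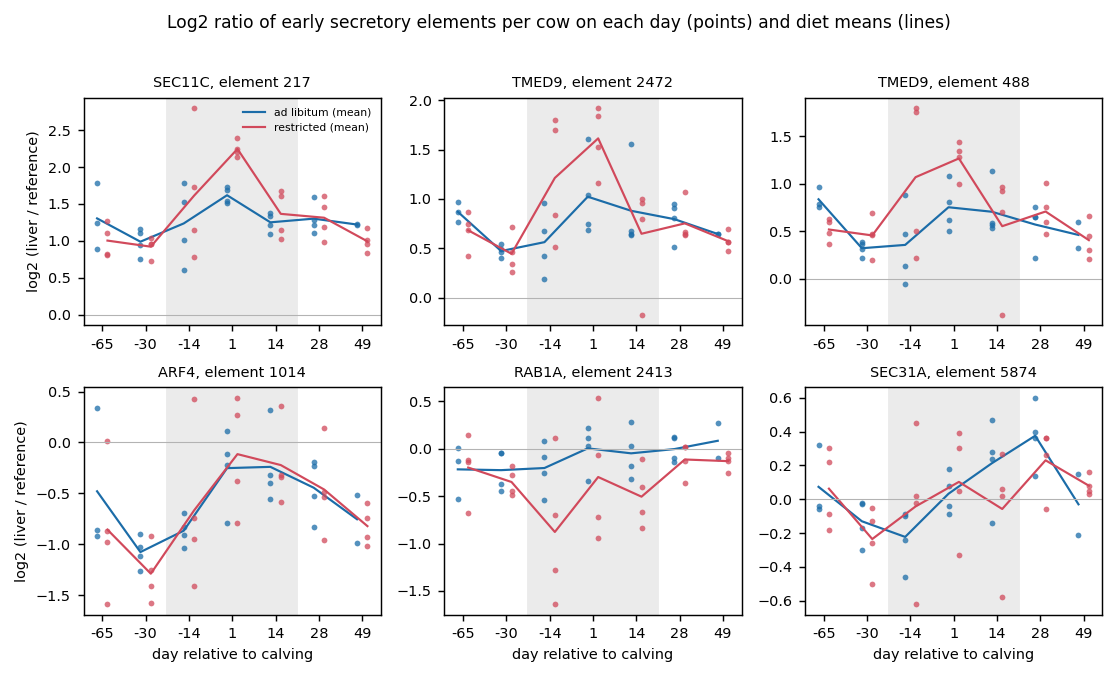
Each panel shows 1 element of an early secretory gene, with a point per cow and a line through the mean of each diet, as log2 (liver / reference) against the day relative to calving; grey marks days -14, 1 and 14. SEC11C and both TMED9 elements have their highest means on day 1, and SEC31A (5874) has its highest mean on day 28.

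Between day 14 and day 28, 8 member elements changed, 3 higher and 5 lower, or 6.84%, against 8.62% of all elements. The members gave 2.56% higher and 4.27% lower, against 3.71% and 4.91% of all elements. VPS39 was lower by -1.26 ± 0.22 (SE) in 7 of 8 cows (limma, adjusted p = 9.84e-05). RAB15 (element 6981) was higher by 0.63 ± 0.11 (SE) in 8 of 8 cows (adjusted p = 0.000112), from -1.24, -1.01 and -0.65 to -0.52, -0.35 and -0.22, without overlap. SEC14L6 and SNX22 were higher by 0.54 ± 0.14 and 0.37 ± 0.12 (SE), with adjusted p of 0.00763 and 0.0438, while SNX22 read -0.10 without centring (median over the array -0.44). EXOC3 (element 6717), RAB11FIP5, COPZ1 and TRAPPC9 were lower by -0.68 ± 0.16, -0.52 ± 0.12, -0.44 ± 0.12 and -0.33 ± 0.11 (SE), with adjusted p of 0.00337, 0.00511, 0.0139 and 0.0475. EXOC3 again depended on the dye, with 0.09 where liver was in Cy5. The second elements differed by -0.36 (RAB15 element 1029) and -0.09 (EXOC3 element 4582). The count of members moved from 4 to 36 over the alternatives, so the size of this step is poorly fixed.

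Of the 38 elements that changed by day -14, 33 differed in the opposite direction from day 14 to day 28 (2409 of 2703 over all elements), and 7 of them passed in that direction (530 of 2703). On day 28, 29 of the 38 still differed from day -30 in the direction of the earlier step (2103 of 2703 over all elements). No member element passed in that comparison. The move back by day 28 was thus measured in the members much as in the rest of the array. The cell type markers were also back near their day -30 ranges: hepatocyte markers lay between 4.36 and 5.14 on day 28 and stellate cell and fibroblast markers between -2.84 and -2.27. From day 28 to day 49 no member element passed (limma), against 0.0124% of all elements. TMED4, SEC16A and TRAPPC13 differed by -0.36 ± 0.11, -0.39 ± 0.14 and -0.37 ± 0.13 (SE), and by 0.05, 0.04 and 0.05 without centring (median over the array 0.34). The second TMED4 element (1574) differed by -0.09. SEC11A (element 3294), RAB13 and YIPF6 differed by 0.31 ± 0.21, 0.20 ± 0.14 and 0.38 ± 0.27 (SE), and the second SEC11A element (216) by -0.15.

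Day 28 against day -30 compares lactation with the dry period on 2 days whose arrays agreed alike. No member element passed (limma), against 0.347% of all elements. The median difference was 0.12 in the members and 0.05 over all elements. Without centring these medians were -0.08 and -0.15. The smallest p was that of SEC31A, followed by TRAPPC13, TMED4 and SEC16A. SEC31A (element 5874), of the outer COPII coat, read -0.50, -0.15 and -0.02 on day -30 and -0.06, 0.36 and 0.60 on day 28, higher in 8 of 8 cows by 0.49 ± 0.12 (SE, adjusted p = 0.0525), and its other elements differed by 0.38 (6409) and 0.40 (5583). SEC16A differed by 0.43 ± 0.12 and TMED4 by 0.36 ± 0.10 (SE), each in 8 of 8 cows (adjusted p = 0.0877 and 0.0829), and TRAPPC13 by 0.43 ± 0.12 (SE) in 7 of 8. RAB33A, EXOC3 (element 4582) and VPS33B (element 5398) differed by -0.43 ± 0.14, -0.31 ± 0.11 and -0.44 ± 0.16 (SE), each lower in 8 of 8 cows. Second elements differed by 0.16 (TMED4 element 1574), -0.28 (EXOC3 element 6717) and 0.09 (VPS33B element 2011). COPII genes and partners had a median difference of 0.34 and p24 proteins of 0.25, with no element past the threshold. Both groups hold several elements of 1 gene, such as SEC31A, TMED4 and TMED9, so their elements are not separate genes. With arrays scaled to equal spread, 9 member elements passed, 7 of them higher.

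Between diets before calving (the mean of days -30 and -14 per cow) no member element passed (limma, 20 had an unadjusted p under 0.05), and 0% of all elements passed (1043 of 8061 had an unadjusted p under 0.05). Sorting nexins supplied the smallest p among positive differences. SNX2 (element 3997) read 0.22, 0.38, 0.32 and 0.29 in the 4 ad libitum cows and -0.30, -0.37, 0.10 and -0.45 in the 4 restricted cows. Its groups did not overlap, with a difference of 0.56 ± 0.14 (SE, adjusted p = 0.284), and its second element (4760) differed by 0.65 ± 0.21 (SE). The elements of SNX10, a sorting nexin of endosomes, differed by 0.84 ± 0.21 (6696) and 0.52 ± 0.15 (3284, SE), and TMED5 by 0.67 ± 0.17 (SE). RAB8A (element 6802), VPS33B (element 5398) and SNX17 differed by -0.59 ± 0.14, -0.47 ± 0.13 and -0.38 ± 0.11 (SE). The second elements of RAB8A (1960) and VPS33B (2011) differed by -0.09 and -0.01.

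After calving (the mean of days 1, 14 and 28 per cow), 14 member elements were higher in cows that had been fed ad libitum and none was lower. This was 12%, against 10.4% of all elements. Over all elements 9.75% were higher and 0.62% lower, so the one-sided direction belonged to the whole array. The 14 came from several of the gene groups. They included YIPF6 and COPG2 (element 6145) of the Golgi, SEC13 and SEC22B of the COPII route and SEC11A (element 3294) of signal peptidase. The rest were ARF5, TMED10, RAB14 (element 1796), RAB24 and 5 VPS genes (VPS13C element 1135, VPS8, VPS52, VPS53 and VPS29). No sorting nexin, TRAPP or exocyst element passed.

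YIPF6, a Golgi membrane protein, had the smallest p. Its mean ratios over the 3 days were 0.15, 0.05, 0.30 and 0.11 in the 4 ad libitum cows and -0.54, -0.75, -0.78 and -0.70 in the 4 restricted cows. The groups lay well apart, and the difference was 0.85 ± 0.10 (SE, n = 4 and 4; limma, adjusted p = 0.000995). COPG2 (element 6145), the gamma subunit of COPI, read -0.19, -0.25, 0.00 and -0.03 in ad libitum and -0.83, -0.89, -1.0 and -0.86 in restricted cows, a difference of 0.78 ± 0.10 (SE, adjusted p = 0.000995). VPS13C (element 1135), a lipid transfer protein, read 0.02, -0.10, 0.24 and 0.04 against -0.60, -0.92, -0.98 and -0.76, a difference of 0.86 ± 0.12 (SE, adjusted p = 0.000995). SEC11A (element 3294), VPS8 of the CORVET tether and RAB14 (element 1796) differed by 0.59 ± 0.10, 0.63 ± 0.11 and 0.71 ± 0.13 (SE), with adjusted p of 0.00278, 0.00305 and 0.00311. The other 8 differed by 0.34 to 0.65. Diets did not overlap in any of the 14. These elements were picked by a test on the same cow means, so the lack of overlap adds no support. The like count over all elements was not made.

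These differences were largest on days 1 and 14 in most of the 14 elements, and single days were not tested. Across the 14 elements, the difference between diets was 0.47 to 1.23 on day 1 and 0.37 to 1.28 on day 14, and -0.07 to 0.12 on day 28. On day -30 it was -0.27 to 0.10 and on day 49 -0.11 to 0.22. Before calving, on day -14, it was already 0.10 to 0.68 in 13 elements and near 0 in RAB24, and VPS29 differed by 0.59 on day -14, 0.57 on day 1 and 0.59 on day 14. On days 1 and 14 the restricted means were mostly the ones farther from their day -30 values. YIPF6 averaged 0.02 on day -30, -1.10 on day 1, -0.93 on day 14 and -0.05 on day 28 in restricted cows. In ad libitum cows it averaged -0.06, 0.13, 0.30 and 0.03. COPG2 (element 6145) moved in both diets, in opposite directions. By day 14 it went from -0.57 to 0.06 in ad libitum and from -0.56 to -1.10 in restricted cows. On day -14, restricted cows already spread widely, with YIPF6 at -2.47, -1.10, -0.91 and 0.98. Cow 6877 had the highest value of that day in 13 of the 14 elements and cow 6952 the lowest in 13. Days 1 and 14 are also days of low agreement of the dyes, with a mean r of 0.336 and 0.398 in ad libitum and 0.552 and 0.561 in restricted cows, and its part in these differences was not tested. Without the samples of r under 0.6, days 14 and 28 were left and none of the 14 passed. Their differences were then -0.04 (VPS29) to 0.23 (YIPF6, limma, adjusted p = 0.958). This setting removed 5 of 8 samples of day 14 and 1 of 8 of day 28, so these values rest mostly on day 28. With the agreement as a covariate 7 passed, and without centring 3 of the 14 passed, with the same sign in all 14.

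The 14 elements took nearly the same course over the 53 samples. They were picked here by the diet contrast, so this is a description: the 91 pairs among them correlated with a median r of 0.882 and a range of 0.578 to 0.979, against a median of 0.00879 over 6786 pairs of all tested member elements. The points share cows, the reference and the array sets. Other elements of the same genes did not take that course. For COPG2, VPS13C, SEC11A, RAB14 and VPS52 a second element was tested, and none of the 5 passed between diets. Their differences were -0.22 (COPG2 element 248), 0.18 (VPS13C element 4917), -0.29 (SEC11A element 216), -0.12 (RAB14 element 1587) and -0.02 (VPS52 element 2567). The 2 elements of COPG2 correlated over samples with r of -0.535, those of RAB14 with -0.262, those of VPS52 with -0.3, those of SEC11A with 0.0153 and those of VPS13C with 0.119. For these 5 genes the size of the difference between diets depends on the element read. In 4 of them the second element had the opposite sign, but none of these passed and that of VPS52 was near 0.

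**Figure D5:**
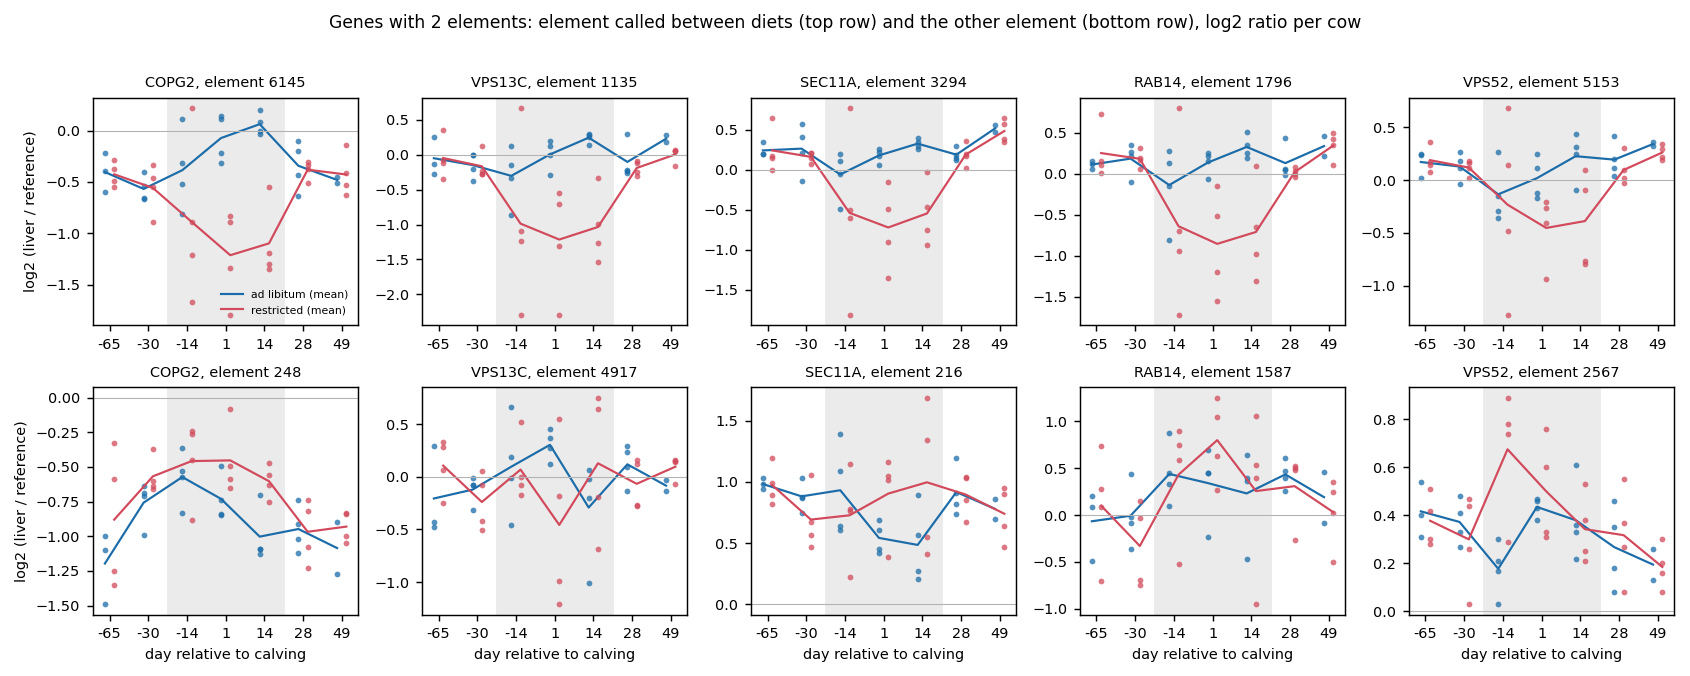
Each column is 1 gene with 2 elements, the element that passed between diets after calving above and the other below, with a point per cow and a line through the mean of each diet, as log2 (liver / reference) against the day relative to calving; grey marks days -14, 1 and 14. In the top row the restricted mean is below the ad libitum mean on days 1 and 14 and the means meet again on day 28, and in the bottom row no element has the higher ad libitum mean by a like amount on both days.

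Among members with lower values in ad libitum cows, RAB31 (element 6119), a GTPase between Golgi and endosomes, differed by -0.35 ± 0.11 (SE, adjusted p = 0.0753), YIPF4 by -0.85 ± 0.28 (adjusted p = 0.0948) and TRAPPC11 by -0.27 ± 0.11 (adjusted p = 0.199). RAB31 read -0.69, -0.54, -0.83 and -0.66 in ad libitum and -0.21, -0.30, -0.30 and -0.52 in restricted cows, without overlap, and on day 28 the difference was still -0.25. Its second element (5857) differed by -0.10. TRAPPC9 had a positive difference of 0.34 ± 0.10 (SE, adjusted p = 0.0682) that included day 28, at 0.29. Of the 123 elements of other traffic genes, 14 passed between diets after calving (11.4%), 12 higher and 2 lower in ad libitum cows, among them GOSR1, a Golgi SNARE, at 0.90 ± 0.12, GGA1, an adaptor of the Golgi, at 0.86 ± 0.11 and ARFRP1, a Golgi GTPase, at -0.91 ± 0.17 (SE). Mean marker ratios per cow after calving were 3.81 to 4.13 in ad libitum and 4.04 to 4.42 in restricted cows for hepatocytes, 1.16 to 1.46 and 1.39 to 1.65 for endothelium, 2.54 to 3.18 and 2.95 to 3.53 for macrophages and -2.39 to -1.69 and -2.35 to -1.77 for stellate cells and fibroblasts. T and NK cell markers read 0.41 to 0.68 and 0.63 to 0.92, and the neutrophil element 1.43 to 2.62 and 2.00 to 2.35. Each of these ranges overlapped between diets, while 2 of 7 endothelial and 1 of 4 T and NK cell elements were lower in ad libitum cows, and of 10 macrophage elements 2 were lower and 1 higher. Their part was not tested.

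The test of whether the course over days differed between diets passed for 1 member element, 0.855% of the members against 0.806% of all elements. It was COPG2 (element 6145; limma, adjusted p = 0.0483), with differences between diets of -0.01 on day -30, 0.50 on day -14, 1.14 on day 1, 1.16 on day 14 and 0.04 on day 28. This call held in few of the alternatives. Without cow 6877, 16 member elements passed, and without cow 6952, 15 passed. The share of all elements that passed in those fits is not given here, so the counts do not single out the members.

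Elements of the same gene differed widely in general. Among 20 genes with 2 or 3 tested elements there were 22 pairs, and their values over samples correlated with a median r of 0.26 and a range of -0.634 to 0.924. Only 6 of the 22 pairs had r over 0.5, and 6 were below 0. The pairs that read alike were those of SNX10 (0.924), SNX2 (0.922), SNX5 (0.889) and TMED9 (0.876), followed by SEC31A elements 5583 and 6409 (0.559) and 5583 and 5874 (0.537). The third SEC31A pair, 5874 and 6409, had r of 0.39. For SNX10, SNX2, SNX5 and TMED9 the values above rest on elements with a like course. For the genes with 1 element, no such check was possible.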

How the data were processed

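Spotted cDNA arrays with 2 colours measured liver RNA of 8 cows. Per the labels, scanned images were processed with GenePix. For 106 arrays of 16416 spots the authors deposited log2 ratios of Cy5 to Cy3; log base and direction were taken from the values and the labelled dyes, and the orientations of all 53 samples correlated negatively as deposited. How the authors corrected background or normalized is not given in the sources used here. Medians of single arrays ran from -1.69 to 1.8, so no centring had been applied. Spot intensities were not used here, and the number of cows limits the precision.

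Spots of an element were averaged, ratios turned to liver over reference, arrays centred on their median, and the 2 orientations averaged, so a sample needed both. Elements with at least 2 cows in each of the 14 diet and day groups were tested (8061). The analysis used limma 3.58.1 and statmod 1.5.0 in R 4.3.3: for days, means of the 14 groups with a random block for cow (cow labels pair the samples; estimated correlation 0.0176), and 1 value per cow for diets. P-values were two-sided and adjusted by Benjamini-Hochberg across all elements (threshold 0.05), and the code was tested on simulated data. A sample that lacked a value in an element was left out of that element's fit.

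Gene symbols are those of the platform's annotation, which can be old; all 96 member symbols also occur in RefSeq's genes of assembly ARS-UCD2.0. No sequence or coordinate is printed, and the planned search of promoters was not run. The members and gene lists were chosen with earlier results of these data known. Named in each comparison were up to 6 member elements per direction past the threshold, by p, or up to 3 as values where none passed, the member with the smallest p of each role group (COPRS, the only one of its group, had an adjusted p of 0.966 over days), and further elements of the same gene. Other elements, and all named genes outside the members, were chosen after their values were seen.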

Additional observations from a re-analysis of the deposited data

Results flagged for a closer look

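In 14 of 282 groups of cows examined for the 36 elements named over days and for the named diet comparisons, 1 cow lay far from the others of its day. That is 4.96%, and chance gives about 1 in 20. Restricted cow 6877 stood apart in 3: ARF4 on day -14 at 0.43 (next value -0.69) and YIPF2 on day -65 at 2.79 (next 0.73) and on day 49 at -0.78 (next 0.73). Restricted cow 6952 stood apart on day 1 in RAB32 at 2.29 (next 1.61) and in SEC16A at 1.70 (next 1.16). Ad libitum cow 7161 stood apart in RAB5B on day 28 at -0.68 (next -0.29), in ARF1 on day -65 at -0.15 (next -0.53) and in TRAPPC1 on day 14 at 0.92 (next 0.44). Ad libitum cow 7187 did so in TRAPPC9 on day 1 at 0.42 (next -0.05) and in SEC31A (element 5874) on day 49 at -0.21 (next 0.03). Ad libitum cow 6886 did so in RAB33A on day 1 at -0.48 (next -0.11) and in EXOC3 (element 4582) on day -30 at -0.60 (next -0.37). Restricted cow 7105 did so in RAB33A on day 28 at 0.59 (next 0.17), and restricted cow 7045 in COPG2 (element 248) on day 1 at -0.08 (next -0.49).

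The course of COPG2 (element 6145) over days differed between diets by a test of the difference itself (limma, adjusted p = 0.0483). Its adjusted p ranged from 0.00424 without cow 6877 to 0.457 without centring.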

How the results depend on the processing

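Counts of called members are given here where they moved by over 1.5 times. Shares over all elements under these alternatives are not given in this section, so the counts do not single out the members. Over the 7 days, 46 members passed, and 0 within either set of days taken alone. For day -14 against day -30 (38), 16 passed without the samples of low agreement and 22 to 41 with 1 cow left out, lowest without cow 7187 and 25 without cow 7045. For day 28 against day 14 (8), 36 passed without centring (all lower), 20 with scaled arrays, 30 with liver in Cy3, 4 with liver in Cy5, 14 without samples of low agreement, 13 with agreement as covariate and 5 to 14 with 1 cow left out (5 without cow 6877, 7105 or 7161, 14 without 6952). For comparisons with 0 called members, day -30 against day -65 had 1 without samples of low agreement, day 1 against day -14 had 0 to 1 with 1 cow left out, and day 14 against day 1 had 1 with liver in Cy5 and 0 to 2 with 1 cow left out. Day 28 against day -30 had 2 without centring, 9 with scaled arrays, 1 with complete elements only and 0 to 1 with 1 cow left out (1 without cow 6952 or 7105). Between diets after calving (14), 5 passed without centring (3 higher and 2 lower), 5 with liver in Cy3, 0 without samples of low agreement, 7 with the covariate and 9 to 15 with 1 cow left out (9 without cow 7161). The interaction (1) fell to 0 without centring, with scaled arrays, with liver in Cy3, with the covariate, without the replicate block and without cow 6886 on day 1, and ranged from 0 to 16 with 1 cow left out.

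The fit without the replicate block gave 44 members over the 7 days, 38 for day -14 against day -30 and 7 for day 28 against day 14, and apart from the interaction moved no count beyond 1.5 times. Differences that changed sign were those of SEC14L6 at day -14 (0.02), RAB11A at day 14 (-0.03), RAB15 element 6981 at day 14 (-0.01), SNX22 at day 28 (-0.10) and TMED4, SEC16A and TRAPPC13 at day 49 (0.05, 0.04 and 0.05), all without centring. With liver in Cy3, RAB15 element 6981 read 0.04 at day 1 and -0.02 at day 14, and with liver in Cy5, EXOC3 element 6717 read 0.09 at day 28. The cause was not tested. Of 1186 values of named elements under the alternatives, 1085 kept their direction and their side of the threshold, 74 lost the call, 17 gained it and 10 reversed.

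Without samples of low agreement, ad libitum cows had no sample on day 1, so tests that need that day were not run. With cow 7161 or 7187 left out, day 49 kept 1 ad libitum cow, which was assumed to vary like the others. The alternatives with subsets of days and without cow 6886 on day 1 were chosen after seeing the data.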
